A study of Mus musculus with 12 samples.

Results

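The collagens and matrix genes described here are 35 genes that encode fibrillar and network collagens, basement membrane proteins, elastic fiber proteins, proteoglycans, matricellular proteins, and the enzymes that crosslink them. They are a fixed list of gene symbols, drawn up with earlier results of these data known, and no measured value enters the rule itself. Each symbol matched 1 Ensembl identifier among the 40551 genes of the files, and all 35 were among the 15070 genes with enough reads to be tested. Reads per gene were counted in total RNA-seq libraries of 12 mouse livers, 3 for each of 4 genotypes. WT mice carried neither deletion. In Mcl1Δhep mice (Mcl1 KO in the labels) the floxed *Mcl1* gene was removed by Cre recombinase under the *Alb* promoter, which is active in hepatocytes, so that nonparenchymal cells keep the gene. Sting1-/- mice lacked *Sting1* in every cell, and Mcl1Δhep Sting1-/- mice carried both changes, so that the last genotypes can be compared on a shared *Sting1*-null background. The WT and Mcl1Δhep livers were from mice of 2 months, and the age of the other livers was not given beside the transcriptomic data in the sources used here. The study used mice of both sexes and asked what hepatocyte loss of *Mcl1*, an antiapoptotic BCL2 family member, does to the liver and how much of it depends on STING, an adaptor of the cytosolic DNA sensing pathway.

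In the liver, interstitial matrix is made mainly by hepatic stellate cells, portal fibroblasts, and the myofibroblasts that arise from them in chronic injury. Collagen I is a trimer of 2 α1 chains and 1 α2 chain, and it assembles with collagen III and collagen V into banded fibrils on which proteoglycans and fibril-associated collagens sit. Collagen IV, laminins, and nidogen form basement membrane, and collagen XVIII and plasma fibronectin are matrix proteins that hepatocytes themselves produce.

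Because *Col1a1*, *Col1a2*, and *Col3a1* encode the main fibril chains and are the members whose relative levels are compared below, the 120 bases before the annotated start of each are shown. They were read from GRCm39 at the start of the representative GENCODE transcript, 5′ to 3′ on the plus strand, which is the strand of all 3 genes. Capitals mark the CCAAT box letters CCAAT, the TATA box letters TATAAA, and the GC box letters GGGCGG, each searched on either strand, so that a hit on the other strand appears as its reverse complement. The motifs do not overlap one another in these windows.
*Col1a1*, chr11:94826930-94827049: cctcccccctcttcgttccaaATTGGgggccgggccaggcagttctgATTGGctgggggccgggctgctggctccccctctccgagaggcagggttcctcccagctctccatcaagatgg
*Col1a2*, chr6:4505373-4505492: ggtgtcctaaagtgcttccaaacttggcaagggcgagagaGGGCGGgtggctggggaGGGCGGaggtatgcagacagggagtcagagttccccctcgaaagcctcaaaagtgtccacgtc
*Col3a1*, chr1:45350578-45350697: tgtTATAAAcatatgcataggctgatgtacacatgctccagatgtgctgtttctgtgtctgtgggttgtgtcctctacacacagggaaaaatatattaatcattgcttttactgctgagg
The *Col1a1* window held CCAAT 2 times on the reverse strand, the *Col1a2* window held GGGCGG 2 times, and the *Col3a1* window held TATAAA near its distal end. Over the 250 bases before the start, CCAAT was found in 12 of the 35 members against 36.3% of 21603 protein-coding genes, GGGCGG in 15 of 35 against 36.6%, and TATAAA in 4 of 35 against 11.9%. None of these short words was thus shared by most members, and a match describes the sequence only.

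Between 28826367 and 45266387 reads fell on genes per library. *Mcl1* had 90.2, 102 and 104 CPM (counts scaled to library size with TMM factors) in WT, 27.9, 34 and 25.0 in Mcl1Δhep, 78.3, 90.1 and 77.0 in Sting1-/-, and 18.1, 22.9 and 26.0 in Mcl1Δhep Sting1-/- livers, so that the labels of the *Mcl1* genotype matched the reads. The *Sting1* counts overlapped between Sting1-/- (1.16, 1.72 and 2.70 CPM) and WT livers (2.53, 2.43 and 2.11 CPM), so a count over the whole gene did not check that label, and genotypes are used as labelled. Y-linked genes were expressed in WT replicates 2 and 3 and in Mcl1Δhep Sting1-/- replicate 1 (141 to 157 CPM summed over 4 genes). They were expressed in none of the other 9 libraries (at most 0.19 CPM). No comparison of 2 genotypes below was balanced for Y-linked expression, so none can be fully told apart from its presence. This includes the *Mcl1* comparison on either background. Mcl1Δhep replicate 3 held skeletal muscle transcripts (1520.4 CPM summed over 8 genes, against at most 8.60 CPM in every other library). Small structured RNAs took 0.283%, 2.37% and 1.36% of the reads in the Mcl1Δhep libraries and 0.172% to 0.897% in the others. The part of these features in the results was not tested beyond the settings named below. In WT, replicate 1, the liver without Y-linked expression, was the highest for 30 of the 35 members, and in Mcl1Δhep Sting1-/- replicate 1, the liver with it, was the highest for 27. Replicate 1 was also the highest for 18 members in Mcl1Δhep and for 24 in Sting1-/- livers. The coefficient of variation over the 3 livers had a median across members of 30.8% in WT, 31.3% in Mcl1Δhep, 16.6% in Sting1-/-, and 20.5% in Mcl1Δhep Sting1-/- livers.

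Per length, *Col18a1* and *Fn1* were by far the most abundant members in WT livers. *Col18a1* (collagen XVIII) had 675 ± 25.4 TPM (abundance per transcript length, mean ± SD, n = 3) and *Fn1* (fibronectin) 369 ± 60.1 TPM. They were followed by *Sparc* (66.1 ± 15.6), *Col14a1* (54.1 ± 20.8), *Dcn* (53.6 ± 11.7), *Col4a1* (43.3 ± 5.03), and *Col3a1* (37.9 ± 17.9), whose ranges over the livers overlapped in part. *Col1a2* (10.5 ± 5.83 TPM) and *Col1a1* (8.31 ± 4.90 TPM) stood at ranks 12 and 15, and *Lox*, the lysyl oxidase that starts collagen crosslinking, was the lowest at 0.458 ± 0.313 TPM. With the longest transcript as the length in place of all annotated exons, the first and second rank and the last stayed, and *Col1a1*, *Col6a1*, and *Col6a2* moved by more than 3 ranks.

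To ask whether matrix transcripts changed when hepatocytes lost *Mcl1*, Mcl1Δhep livers were compared with WT livers. Of the 35 members, 19 rose and 1 fell at an adjusted p under 0.05, where 10.8% of all tested genes rose, 9.43% fell, and 20.2% were called in either direction. The median log2 fold change was 0.96 over the members and -0.005 over all tested genes. *Thbs1*, *Col1a1*, *Tnc*, *Mgp*, *Eln*, and *Col3a1* rose the most, and *Col18a1* was the gene that fell. In 21 members every Mcl1Δhep liver lay above every WT liver, including the high WT replicate 1, which 16.2% of tested genes did. Bulk RNA cannot tell more matrix-producing cells from more RNA per cell.

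The call count depended on the livers in the model. It was 7 of 35 without Mcl1Δhep replicate 2, without WT replicate 2, or without WT replicate 3, 23 without WT replicate 1, 8 with Y-linked expression as a covariate, 4 with the share of small structured RNA as a covariate, 10 with only the compared livers in the model, and 0 in the 9 libraries without Y-linked expression, where WT is 1 liver that is assumed to vary like the other genotypes. Over all genes the count ranged from 1233 to 5232 with 1 library left out. The setting of 9 libraries was added after the data were seen, and edgeR called 4 genes of 16222 in it. The median of the members was 0.63 in those 9 libraries and ranged from 0.80 to 1.35 with any single library left out, and 30 of 35 members stayed positive in the 9 libraries.

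The same deletion was examined on the Sting1-/- background, in 6 livers that share none with the comparison above. No member passed in the quasi-likelihood test of edgeR (0.803% of tested genes did, 0.677% in the upward direction), whereas 18 members were higher at an unadjusted p under 0.05 (7.27% of tested genes) and none was lower. DESeq2 called 8 higher, and it called 3.15% of tested genes in either direction. A model with the replicate number as a block called *Col1a1* and *Col3a1*, without a share over all genes beside it. The median log2 fold change was 0.66 against -0.009 over all genes. It was 0.49 without Mcl1Δhep Sting1-/- replicate 1, the only liver here with Y-linked expression. With any single library left out it ranged from 0.48 to 0.78. In 26 of 35 members all 3 Mcl1Δhep Sting1-/- livers lay above all 3 Sting1-/- livers (11.5% of tested genes). In 17 members the groups stood apart in this way on both backgrounds (6.01% of tested genes). Averaged over both backgrounds, with 12 livers behind the estimate, 25 members rose and none fell, against 9.9% of all genes that rose, 6.83% that fell, and 16.7% called in either direction. That count was 17 to 26 with 1 library left out, 20 with the small RNA covariate, and 23 with the Y-linked covariate. Counts over all genes are not set beside these, so a drop alone does not tell the members from other genes. The member median was 0.86 in the mean and 0.79 to 0.98 with 1 library left out. It was 0.62 in the 9 libraries without Y-linked expression, where WT is 1 liver.

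**Figure D1:**
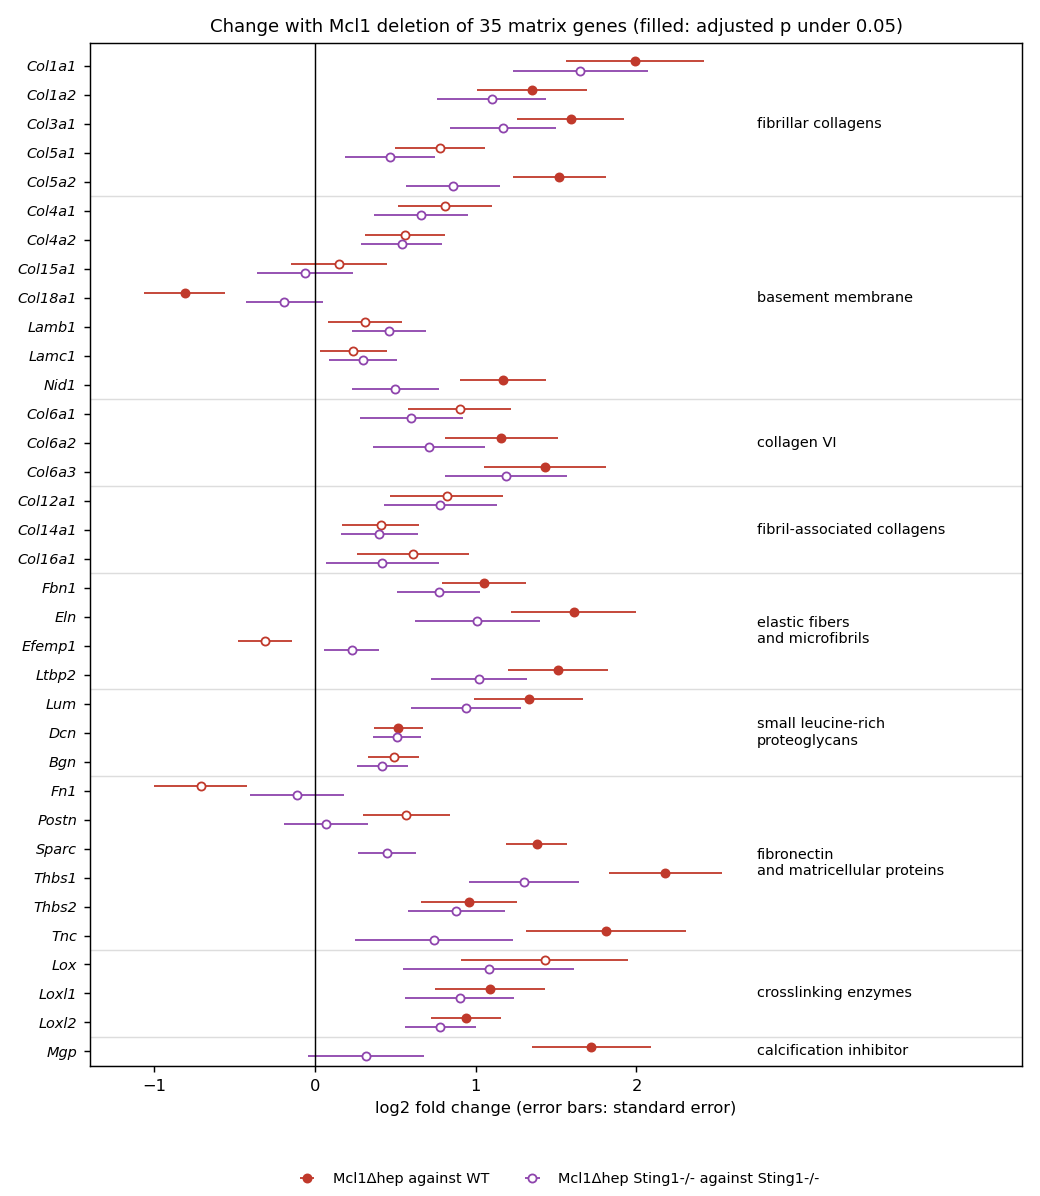
Log2 fold changes (x axis, error bars are standard errors) of the 35 members, grouped by role, for Mcl1Δhep against WT (red) and Mcl1Δhep Sting1-/- against Sting1-/- (purple), with filled points for an adjusted p under 0.05. The 20 filled points are all red, 19 of them right of 0, and 32 members lie right of 0 in each comparison.

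Among the fibrillar collagens, which form the banded fibers of scar tissue, all 5 rose in the mean over backgrounds and 4 rose in Mcl1Δhep against WT livers. *Col1a1* had 24.1, 11.7 and 9.01 CPM in the WT livers, 61.3, 72.7 and 44.0 CPM in the Mcl1Δhep livers, 13.5, 11.6 and 7.43 CPM in the Sting1-/- livers and 56.0, 23.7 and 22.8 CPM in the Mcl1Δhep Sting1-/- livers (ENSMUSG00000001506, chr11:94827050-94843868, plus strand). The α1 chain of collagen I thus showed no overlap between *Mcl1*-deleted and intact livers on either background, with one Mcl1Δhep Sting1-/- liver near the Mcl1Δhep values and the other 2 just below the highest WT liver. The log2 fold change (± SE, edgeR) was 1.99 ± 0.43, adjusted p = 0.0101, against WT and 1.65 ± 0.42, adjusted p = 0.111, on the Sting1-/- background. *Col1a2* had 57.2, 28.8 and 23.0 CPM in the WT livers, 95.6, 96.9 and 86.9 CPM in the Mcl1Δhep livers, 37.8, 29.6 and 24.0 CPM in the Sting1-/- livers and 95.3, 49.9 and 50.3 CPM in the Mcl1Δhep Sting1-/- livers (ENSMUSG00000029661, chr6:4504814-4541555, plus strand). This α2 chain changed by 1.35 ± 0.34, adjusted p = 0.0182, against WT and by 1.10 ± 0.34, adjusted p = 0.195, on the Sting1-/- background, where the values of replicates 2 and 3 lay below that of WT replicate 1.

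*Col3a1* encodes the chain of collagen III, a homotrimer of pliable tissues (ENSMUSG00000026043, chr1:45350698-45395840, plus strand). *Col3a1* had 158, 86.9 and 75.4 CPM in the WT livers, 360.3, 319 and 288 CPM in the Mcl1Δhep livers, 125, 96.2 and 77.8 CPM in the Sting1-/- livers and 333, 174 and 164 CPM in the Mcl1Δhep Sting1-/- livers. It had the most counts of the fibrillar members, with changes of 1.59 ± 0.33, adjusted p = 0.00848, and 1.17 ± 0.33, adjusted p = 0.148, on the intact and the Sting1-/- background. The lowest Mcl1Δhep liver lay above the highest WT liver. *Col5a2* had 13, 7.56 and 8.19 CPM in the WT livers, 33.2, 31.7 and 18.0 CPM in the Mcl1Δhep livers, 12.1, 11.3 and 7.07 CPM in the Sting1-/- livers and 22.4, 14.8 and 18.2 CPM in the Mcl1Δhep Sting1-/- livers. This collagen V chain, which helps to nucleate fibrils, changed by 1.52 ± 0.29, adjusted p = 0.00633, and 0.86 ± 0.29, adjusted p = 0.248, and its groups did not overlap on either background. *Col5a1* had 22.2, 12.8 and 12.8 CPM in the WT livers, 36.9, 26.9 and 18.8 CPM in the Mcl1Δhep livers, 19.1, 18.4 and 13 CPM in the Sting1-/- livers and 28.2, 20.9 and 21.1 CPM in the Mcl1Δhep Sting1-/- livers. The partner chain *Col5a1* passed in the mean over backgrounds only (0.63 ± 0.20, adjusted p = 0.0467), and its lowest Mcl1Δhep liver lay below the highest WT liver.

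**Figure D2:**
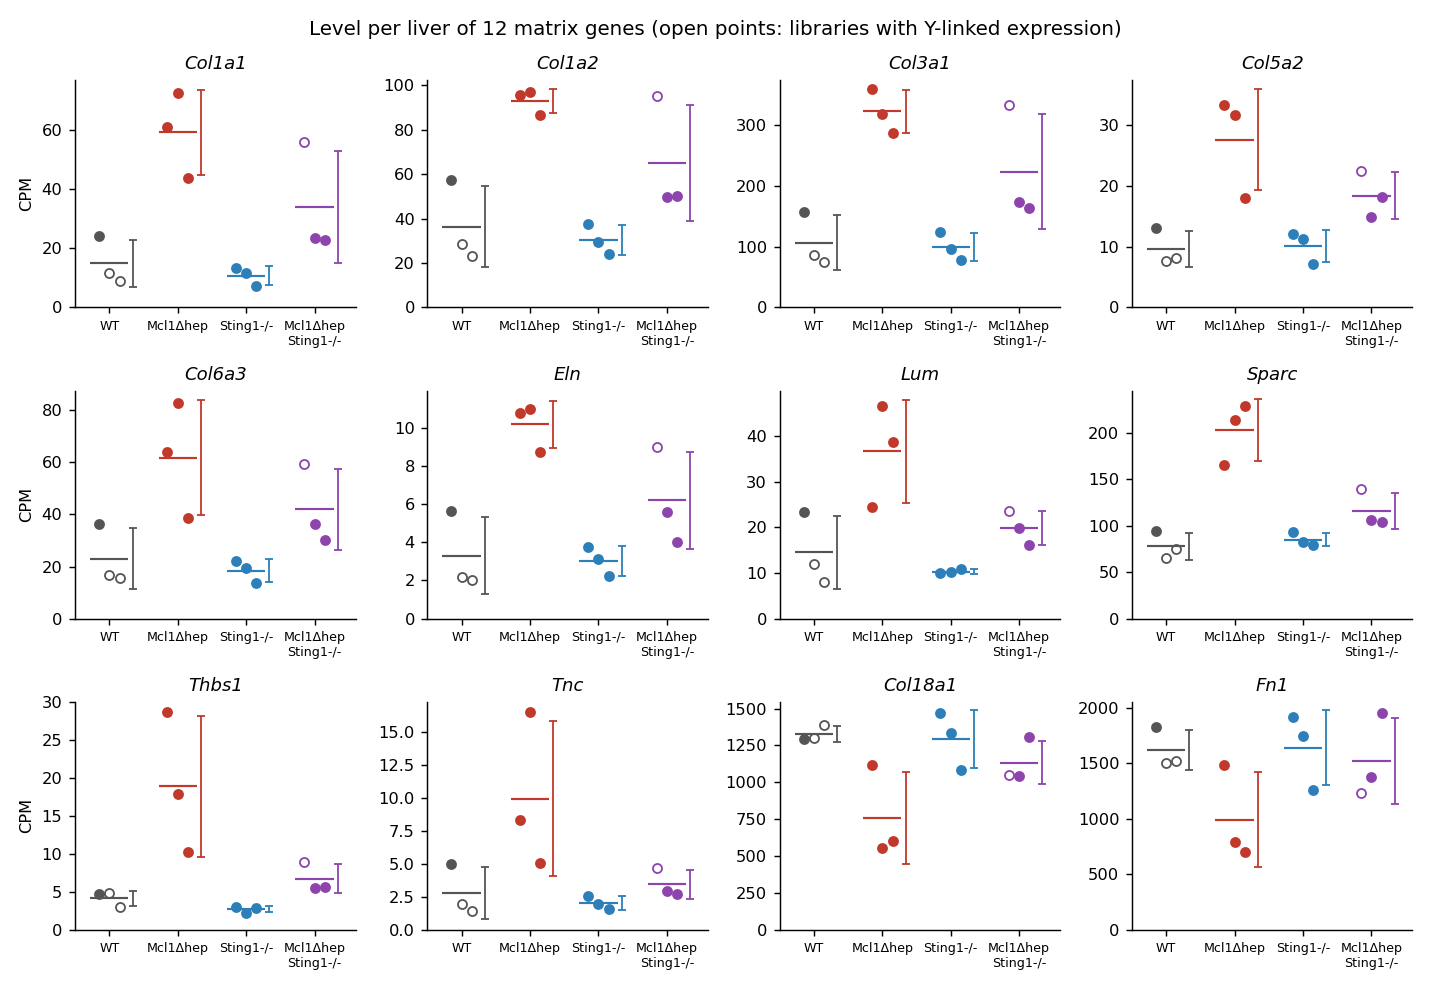
CPM (y axis, linear from 0) of 12 members in each liver, by genotype. Points are livers, open where Y-linked genes were expressed, horizontal lines are means, and bars to their right are SD. *Col1a1* was 44.0 CPM or more in each Mcl1Δhep liver and 24.1 CPM or less in each WT liver, and *Col18a1* was at most 1115 CPM in Mcl1Δhep and at least 1291 CPM in WT livers.

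The chains of fibrillar collagen did not change by the same factor. Ratios of 2 members within a liver do not depend on library scaling, and 8 ratios were tested by exact two-sided permutation of the *Mcl1* genotype within each *Sting1* background (400 arrangements, smallest p = 0.005, adjusted over the 8). The *Col1a1* to *Col1a2* ratio of TPM was 0.81, 0.781 and 0.753 in WT, 1.23, 1.45 and 0.976 in Mcl1Δhep, 0.69, 0.754 and 0.596 in Sting1-/-, and 1.13, 0.914 and 0.875 in Mcl1Δhep Sting1-/- livers. Each *Mcl1*-deleted liver was above each intact liver, WT replicate 1 included, and the mean log2 difference was 0.57 (exact permutation p = 0.005, adjusted p = 0.0133). Relative to *Col1a1*, *Col3a1* was lower, with a log2 difference of -0.44, and *Col5a1* with one of -1.2, both at an exact permutation p of 0.005 and an adjusted p of 0.0133. The *Col5a1* to *Col1a1* ratio was 0.695, 0.827 and 1.07 in WT and 0.453, 0.278 and 0.321 in Mcl1Δhep livers, and 1.07, 1.19 and 1.32 in Sting1-/- and 0.38, 0.666 and 0.696 in Mcl1Δhep Sting1-/- livers. These 3 ratios passed with any single library left out. In the 9 libraries without Y-linked expression, where WT is 1 liver, the differences were 0.49, -0.30, and -0.91. With the 40 arrangements there and adjustment over the 8, no ratio could pass by itself, so the test cannot decide.

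**Figure D3:**
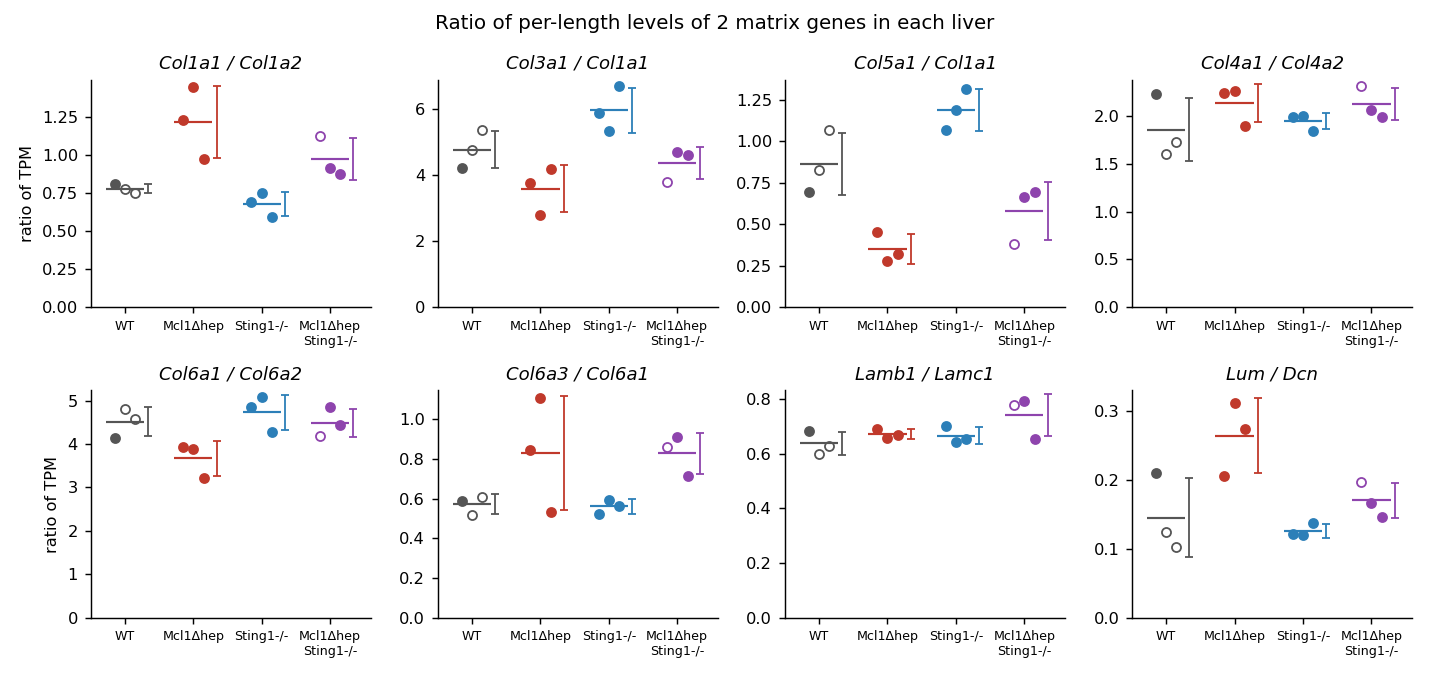
Ratio of the TPM of 2 members (y axis, linear from 0) in each liver, by genotype, with points, lines, and bars as in the plot of single genes. *Col1a1* / *Col1a2* was 0.81 or less in every WT and Sting1-/- liver and 0.875 or more in every *Mcl1*-deleted liver, whereas *Lamb1* / *Lamc1* overlapped between the genotypes.

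Of the 7 basement membrane members, 1 rose (*Nid1*) and 1 fell (*Col18a1*) in Mcl1Δhep against WT livers, and *Nid1* and *Col4a1* rose in the mean over backgrounds. *Nid1* encodes nidogen, which links laminin to collagen IV. *Nid1* had 38.1, 23.0 and 28.2 CPM in the WT livers, 85.0, 78.8 and 37.5 CPM in the Mcl1Δhep livers, 31.8, 31.7 and 25.3 CPM in the Sting1-/- livers and 42.5, 45.3 and 37.9 CPM in the Mcl1Δhep Sting1-/- livers. Its change was 1.17 ± 0.27, adjusted p = 0.0141, against WT, with Mcl1Δhep replicate 3 just below WT replicate 1, and 0.50 ± 0.27, adjusted p = 0.545, on the Sting1-/- background. *Col4a1* (ENSMUSG00000031502, chr8:11248423-11362826, minus strand) and *Col4a2* (ENSMUSG00000031503, chr8:11362471-11499287, plus strand) encode the chains of collagen IV and lie head to head, with gene bodies that share 356 bases. *Col4a1* had 96.4, 88.7 and 84.3 CPM in the WT livers, 225, 163 and 86.0 CPM in the Mcl1Δhep livers, 93.4, 86.5 and 55.1 CPM in the Sting1-/- livers and 140.4, 111 and 120.1 CPM in the Mcl1Δhep Sting1-/- livers. It passed in the mean (0.74 ± 0.21, adjusted p = 0.0306), and *Col4a2*, at 28.6 to 96.3 CPM over the 12 livers, did not (0.55 ± 0.18, adjusted p = 0.0528). The genes share 311 exonic bases on opposite strands and the use of strand in counting was not given, so reads there cannot be assigned between them, and the *Col4a1* to *Col4a2* ratio (log2 difference 0.17, exact permutation p = 0.08, adjusted p = 0.08) did not pass. Without WT replicate 1 it did (exact permutation, adjusted p = 0.03).

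*Col18a1* (ENSMUSG00000001435, chr10:76888012-77002390, minus strand) was the most abundant member. *Col18a1* had 1291, 1303 and 1390.4 CPM in the WT livers, 1115, 555 and 599 CPM in the Mcl1Δhep livers, 1470, 1333 and 1081 CPM in the Sting1-/- livers and 1052, 1045 and 1304 CPM in the Mcl1Δhep Sting1-/- livers. It fell in Mcl1Δhep against WT livers (-0.81 ± 0.25, adjusted p = 0.0375), all 3 Mcl1Δhep livers lay below all WT livers, and 9 of 22 alternative settings kept the call. On the Sting1-/- background the change was -0.19 ± 0.24, adjusted p = 0.852, with overlapping groups. Of its exonic bases, 12.7% overlap *Slc19a1* on the other strand, a gene with 0.425% as many counts. The laminin chains *Lamb1* (15.1 to 32.5 CPM) and *Lamc1* (24.7 to 49.5 CPM) and *Col15a1* (3.94 to 10.2 CPM) passed in no comparison, with mean *Mcl1* effects of 0.39 ± 0.17, 0.27 ± 0.15, and 0.05 ± 0.21. The *Lamb1* to *Lamc1* ratio differed by 0.12 on the log2 scale (exact permutation p = 0.08, adjusted p = 0.08), and it passed without WT replicate 1 (adjusted p = 0.03) or without Mcl1Δhep Sting1-/- replicate 3 (adjusted p = 0.0333).

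Collagen VI is a beaded microfibril of 3 chains between interstitial matrix and cells, and all 3 of its chains rose in the mean over backgrounds. *Col6a1* had 29.8, 15.6 and 12.4 CPM in the WT livers, 36.7, 36.2 and 35.1 CPM in the Mcl1Δhep livers, 20.6, 15.7 and 11.8 CPM in the Sting1-/- livers and 33.4, 19.3 and 20.5 CPM in the Mcl1Δhep Sting1-/- livers. Its Mcl1Δhep values lay within 2 CPM of each other and above the WT livers, yet it passed in the mean only (0.75 ± 0.22, adjusted p = 0.0385). *Col6a2* had 13.5, 6.11 and 5.12 CPM in the WT livers, 17.6, 17.6 and 20.6 CPM in the Mcl1Δhep livers, 8.0, 5.84 and 5.16 CPM in the Sting1-/- livers and 15, 7.51 and 8.70 CPM in the Mcl1Δhep Sting1-/- livers. *Col6a2* rose by 1.16 ± 0.35, adjusted p = 0.0374, against WT, and its Mcl1Δhep Sting1-/- and Sting1-/- livers overlapped. *Col6a3* had 36.3, 16.7 and 15.7 CPM in the WT livers, 64.1, 82.6 and 38.7 CPM in the Mcl1Δhep livers, 22.1, 19.3 and 13.7 CPM in the Sting1-/- livers and 59.3, 36.2 and 30.2 CPM in the Mcl1Δhep Sting1-/- livers. *Col6a3* rose by 1.43 ± 0.38, adjusted p = 0.0235, against WT and changed by 1.19 ± 0.38, adjusted p = 0.22, on the Sting1-/- background. Relative to *Col6a1*, *Col6a3* was higher with *Mcl1* deletion by 0.52 on the log2 scale (exact permutation p = 0.015, adjusted p = 0.024), although the ratio in Mcl1Δhep replicate 3 (0.535) lay within the WT range, and without WT replicate 2 the adjusted p was 0.056. *Col6a1* was lower relative to *Col6a2*, with a difference of -0.19 (exact permutation p = 0.03, adjusted p = 0.04), which was lost in 9 of the 12 fits that each lacked 1 library (difference -0.22 to -0.14).

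Of the 3 fibril-associated collagens, which decorate fibril surfaces, none passed against WT and *Col12a1* passed in the mean over backgrounds. *Col12a1* had 3.01, 3.03 and 2.21 CPM in the WT livers, 3.93, 7.16 and 3.67 CPM in the Mcl1Δhep livers, 2.33, 2.68 and 3.23 CPM in the Sting1-/- livers and 3.84, 3.02 and 7.44 CPM in the Mcl1Δhep Sting1-/- livers. The mean change was 0.80 ± 0.24, adjusted p = 0.0427, and Mcl1Δhep Sting1-/- replicate 3 and Mcl1Δhep replicate 2 were the high livers. *Col14a1*, the most abundant of the 3, is a collagen of quiescent fibroblasts and tendon. *Col14a1* had 145, 81.4 and 87.9 CPM in the WT livers, 179.9, 132 and 104 CPM in the Mcl1Δhep livers, 115, 113 and 95.0 CPM in the Sting1-/- livers and 148, 132 and 145 CPM in the Mcl1Δhep Sting1-/- livers. Its mean change of 0.40 ± 0.17, adjusted p = 0.12, did not pass. *Col16a1* ranged from 3.37 to 10.4 CPM, with a mean change of 0.51 ± 0.25, adjusted p = 0.176.

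Elastic fibers combine an elastin core with fibrillin microfibrils. *Eln*, *Fbn1*, and *Ltbp2* rose in Mcl1Δhep against WT livers, and *Efemp1* did not pass. *Eln* had 5.62, 2.19 and 2.05 CPM in the WT livers, 10.8, 11 and 8.76 CPM in the Mcl1Δhep livers, 3.78, 3.13 and 2.22 CPM in the Sting1-/- livers and 8.99, 5.60 and 4.02 CPM in the Mcl1Δhep Sting1-/- livers. Elastin changed by 1.61 ± 0.39, adjusted p = 0.0166, and 1.01 ± 0.39, adjusted p = 0.327, on the 2 backgrounds, without overlap on either. *Fbn1* had 14.1, 10.3 and 10.4 CPM in the WT livers, 31.6, 24.8 and 15.9 CPM in the Mcl1Δhep livers, 10.9, 12 and 9.24 CPM in the Sting1-/- livers and 23.8, 17.1 and 14.0 CPM in the Mcl1Δhep Sting1-/- livers. Fibrillin-1 changed by 1.05 ± 0.26, adjusted p = 0.0172, and 0.77 ± 0.26, adjusted p = 0.247. *Ltbp2* had 2.77, 1.54 and 1.59 CPM in the WT livers, 5.11, 7.37 and 4.65 CPM in the Mcl1Δhep livers, 2.27, 2.49 and 1.40 CPM in the Sting1-/- livers and 5.31, 3.92 and 3.45 CPM in the Mcl1Δhep Sting1-/- livers. *Ltbp2* encodes a fibrillin-binding protein, and its changes were 1.51 ± 0.31, adjusted p = 0.00801, and 1.02 ± 0.30, adjusted p = 0.179. *Efemp1* encodes fibulin-3 and was the most abundant of the 4 per length. *Efemp1* had 14.2, 11.3 and 9.05 CPM in the WT livers, 8.05, 9.39 and 10.4 CPM in the Mcl1Δhep livers, 9.66, 7.70 and 8.90 CPM in the Sting1-/- livers and 9.82, 9.80 and 11.1 CPM in the Mcl1Δhep Sting1-/- livers. Its change was -0.31 ± 0.17, adjusted p = 0.213, against WT and 0.23 ± 0.17, adjusted p = 0.721, on the Sting1-/- background, and the difference between the 2 changes was 0.54 ± 0.25, adjusted p = 0.347.

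The small leucine-rich proteoglycans bind collagen and regulate fibril width. *Lum* and *Dcn*, neighbors on chromosome 10 with 42834 bases between them, rose against WT, and *Bgn* rose in the mean over backgrounds. *Lum* had 23.4, 12 and 7.99 CPM in the WT livers, 24.4, 46.6 and 38.7 CPM in the Mcl1Δhep livers, 9.92, 10.2 and 10.9 CPM in the Sting1-/- livers and 23.6, 19.9 and 16.1 CPM in the Mcl1Δhep Sting1-/- livers. Lumican changed by 1.33 ± 0.34, adjusted p = 0.0197, and 0.94 ± 0.34, adjusted p = 0.291, and Mcl1Δhep replicate 1 lay just above WT replicate 1. *Dcn* had 227, 195 and 159 CPM in the WT livers, 242, 303 and 287 CPM in the Mcl1Δhep livers, 167, 174 and 160 CPM in the Sting1-/- livers and 244, 244 and 224 CPM in the Mcl1Δhep Sting1-/- livers. Decorin changed by less, 0.52 ± 0.15, adjusted p = 0.0341, and 0.51 ± 0.15, adjusted p = 0.183, with little spread between the Sting1-/- livers. The *Lum* to *Dcn* ratio was higher with *Mcl1* deletion by 0.66 on the log2 scale (exact permutation p = 0.01, adjusted p = 0.02), with ratios of 0.21, 0.125 and 0.102 in WT and 0.205, 0.312 and 0.274 in Mcl1Δhep livers. Mcl1Δhep replicate 1 lay just below WT replicate 1 in this ratio, and the exact permutation test did not pass without Mcl1Δhep replicate 2 (adjusted p = 0.0533) or replicate 3 (adjusted p = 0.056). *Bgn* had 60.6, 38.9 and 45.1 CPM in the WT livers, 72.4, 69.1 and 62.3 CPM in the Mcl1Δhep livers, 44.3, 44.2 and 37.2 CPM in the Sting1-/- livers and 61.5, 53.7 and 52.6 CPM in the Mcl1Δhep Sting1-/- livers. Biglycan's mean change was 0.46 ± 0.12, adjusted p = 0.0198, and its groups stood apart on both backgrounds.

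Fibronectin and the matricellular proteins, which signal to cells more than they bear load, held the largest rise of the 35 genes against WT, that of *Thbs1*. On the Sting1-/- background and in the mean over backgrounds the largest change was that of *Col1a1* (1.65 and 1.82). *Thbs1* had 4.70, 4.78 and 2.97 CPM in the WT livers, 28.7, 17.9 and 10.2 CPM in the Mcl1Δhep livers, 3.03, 2.23 and 2.82 CPM in the Sting1-/- livers and 8.95, 5.56 and 5.69 CPM in the Mcl1Δhep Sting1-/- livers. *Thbs1* (ENSMUSG00000040152, chr2:117941974-117957616, plus strand) encodes thrombospondin-1, an activator of latent TGF-β. Every Mcl1Δhep liver exceeded 10 CPM and every other liver was under 9 CPM, with changes of 2.18 ± 0.35, adjusted p = 0.00283, and 1.30 ± 0.34, adjusted p = 0.121, on the 2 backgrounds. *Tnc* had 5.01, 1.93 and 1.42 CPM in the WT livers, 8.34, 16.5 and 5.03 CPM in the Mcl1Δhep livers, 2.56, 1.99 and 1.54 CPM in the Sting1-/- livers and 4.71, 2.92 and 2.68 CPM in the Mcl1Δhep Sting1-/- livers. Tenascin-C, a protein of provisional matrix, changed by 1.81 ± 0.50, adjusted p = 0.0268, and 0.74 ± 0.49, adjusted p = 0.659, and Mcl1Δhep replicate 3 lay only just above WT replicate 1. *Sparc* had 93.9, 65.3 and 74.8 CPM in the WT livers, 165, 214 and 229 CPM in the Mcl1Δhep livers, 92.8, 82.7 and 79.3 CPM in the Sting1-/- livers and 139, 106 and 104 CPM in the Mcl1Δhep Sting1-/- livers. *Sparc* (ENSMUSG00000018593, chr11:55285317-55314067, minus strand) encodes a collagen-binding glycoprotein, and it had the smallest adjusted p of the members against WT (1.38 ± 0.19, adjusted p = 0.00148), and 0.45 ± 0.18, adjusted p = 0.362, on the Sting1-/- background.

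*Thbs2* had 10.9, 4.89 and 5.42 CPM in the WT livers, 17.5, 15 and 9.08 CPM in the Mcl1Δhep livers, 5.50, 7.16 and 5.62 CPM in the Sting1-/- livers and 12.9, 10.4 and 10.4 CPM in the Mcl1Δhep Sting1-/- livers. Thrombospondin-2 rose by 0.96 ± 0.30, adjusted p = 0.0435, against WT, where Mcl1Δhep replicate 3 lay below WT replicate 1, and changed by 0.88 ± 0.30, adjusted p = 0.269, on the Sting1-/- background. *Fn1* (ENSMUSG00000026193, chr1:71624673-71692419, minus strand) had negative fold changes. *Fn1* had 1830.4, 1505 and 1526 CPM in the WT livers, 1485, 789 and 701 CPM in the Mcl1Δhep livers, 1919.8, 1745 and 1261 CPM in the Sting1-/- livers and 1229, 1379.5 and 1957 CPM in the Mcl1Δhep Sting1-/- livers. Its change against WT was -0.71 ± 0.29, adjusted p = 0.0976, with no overlap between the groups, and the change on the Sting1-/- background was -0.11 ± 0.29, adjusted p = 0.937. *Postn* (periostin) ranged from 10.1 to 31.0 CPM and passed in no comparison. It was the member with the lowest unadjusted p between Sting1-/- and WT livers (0.80 ± 0.27, adjusted p = 0.784), and all 3 Sting1-/- livers lay above the WT livers.

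The crosslinking enzymes oxidize lysine residues of collagen and elastin. *Loxl1* and *Loxl2* rose against WT and all 3 enzymes rose in the mean over backgrounds. *Loxl1* had 6.62, 3.97 and 2.28 CPM in the WT livers, 8.25, 10.1 and 9.39 CPM in the Mcl1Δhep livers, 2.62, 3.18 and 2.63 CPM in the Sting1-/- livers and 7.72, 4.22 and 3.97 CPM in the Mcl1Δhep Sting1-/- livers. *Loxl2* had 7.15, 4.33 and 4.76 CPM in the WT livers, 11.2, 11.4 and 8.66 CPM in the Mcl1Δhep livers, 4.57, 5.04 and 4.39 CPM in the Sting1-/- livers and 10.1, 7.04 and 7.06 CPM in the Mcl1Δhep Sting1-/- livers. *Loxl1* changed by 1.09 ± 0.34, adjusted p = 0.0418, and *Loxl2* by 0.94 ± 0.22, adjusted p = 0.0137, and on the Sting1-/- background the changes were 0.90 ± 0.34 and 0.78 ± 0.22 (adjusted p = 0.327 and 0.146). Of the exonic bases of *Loxl2*, 17.1% overlap *R3hcc1* on the other strand, which had 124% as many counts. *Lox* had 0.95, 0.741 and 0.165 CPM in the WT livers, 1.80, 2.33 and 1.2 CPM in the Mcl1Δhep livers, 0.582, 0.318 and 0.338 CPM in the Sting1-/- livers and 1.57, 0.707 and 0.547 CPM in the Mcl1Δhep Sting1-/- livers. *Lox*, with 5 to 87 counts per library, passed in the mean only (1.26 ± 0.37, adjusted p = 0.0384). *Mgp* encodes matrix Gla protein, an inhibitor of calcification. *Mgp* had 4.19, 2.05 and 1.78 CPM in the WT livers, 4.63, 11.2 and 11.2 CPM in the Mcl1Δhep livers, 2.30, 2.31 and 2.87 CPM in the Sting1-/- livers and 2.91, 3.05 and 3.45 CPM in the Mcl1Δhep Sting1-/- livers. It rose by 1.72 ± 0.37, adjusted p = 0.00938, against WT, and changed by 0.32 ± 0.36, adjusted p = 0.828, on the Sting1-/- background, and Mcl1Δhep replicate 1 was near WT replicate 1 while the other 2 Mcl1Δhep livers were far above.

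*Fn1* and *Col18a1* held most of the reads of the set in all livers except Mcl1Δhep replicates 2 and 3. The total of the set therefore did not follow the other members. The 33 genes without them summed to 1248, 859 and 814 CPM in WT and 2064, 1984 and 1616 CPM in Mcl1Δhep livers, and to 998, 933 and 769.9 CPM in Sting1-/- and 1709, 1285 and 1262 CPM in Mcl1Δhep Sting1-/- livers. Each *Mcl1*-deleted liver was above each intact liver. *Fn1* and *Col18a1* summed to 2809 to 3122 CPM in WT and to 2600, 1344 and 1300.3 CPM in Mcl1Δhep livers, of which replicate 1 stood well above the others. All 35 genes took 0.306% to 0.498% of the reads of a library.

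**Figure D4:**
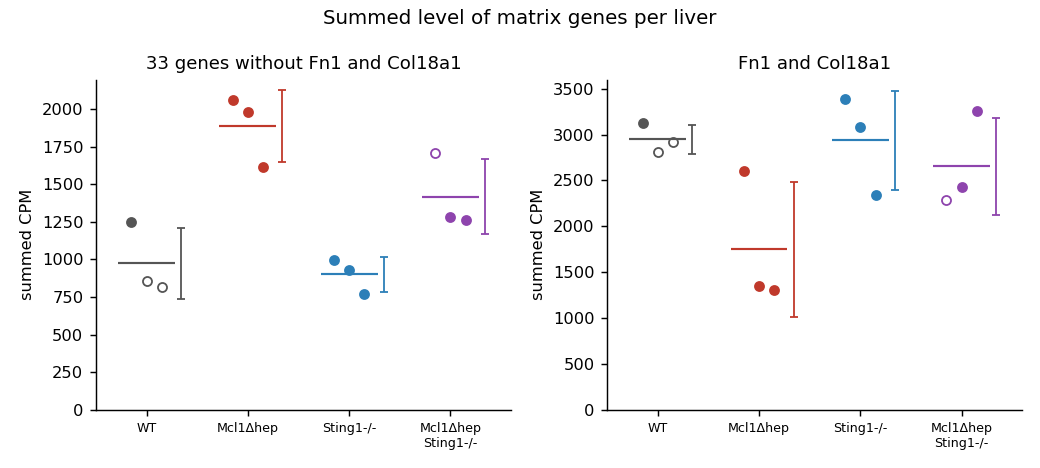
Summed CPM (y axis, linear from 0) per liver of the 33 members other than *Fn1* and *Col18a1* (left) and of those 2 (right), with points, lines, and bars as in the plot of single genes. On the left every *Mcl1*-deleted liver (1262 CPM or more) exceeded every intact liver (1248 CPM or less), and on the right all Mcl1Δhep livers (at most 2600 CPM) lay below all WT livers.

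Whether loss of *Sting1* altered matrix transcripts in *Mcl1*-deleted livers was examined by comparing Mcl1Δhep Sting1-/- with Mcl1Δhep livers. No member passed in edgeR, as no tested gene did (0.0%), and at an unadjusted p under 0.05, 8 members were lower (10.2% of tested genes were lower at that limit) and 1, *Col18a1*, was higher. DESeq2 called 4 members lower, *Sparc*, *Thbs1*, *Tnc*, and *Mgp*, and 4.45% of tested genes in either direction. The median log2 fold change was -0.43 over the members and -0.002 over all genes, with 28 of 35 below 0. It was -0.62 without Mcl1Δhep Sting1-/- replicate 1, the only liver here with Y-linked expression. With any single library left out it ranged from -0.62 to -0.33. In 9 members all Mcl1Δhep Sting1-/- livers lay below all Mcl1Δhep livers (9.28% of tested genes). This comparison shares the Mcl1Δhep livers with the comparison against WT, so a low sample there moves both.

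The most negative differences were those of *Tnc* (-1.52 ± 0.49, adjusted p = 0.151), *Mgp* (-1.50 ± 0.36, adjusted p = 0.131), *Thbs1* (-1.49 ± 0.34, adjusted p = 0.131), *Lox* (-0.89 ± 0.51, adjusted p = 0.335), *Lum* (-0.88 ± 0.33, adjusted p = 0.183), and *Col6a2* (-0.83 ± 0.35, adjusted p = 0.21). *Sparc* was at 104 to 139 CPM in the former and 165 to 229 CPM in the latter (-0.80 ± 0.18, adjusted p = 0.131). The fibrillar collagens differed by -0.80 to -0.23, with overlapping groups in all 5. Mcl1Δhep Sting1-/- replicate 1 lay within the Mcl1Δhep range for *Col1a1*, *Col1a2*, and *Col3a1*. For *Col5a1* and *Col5a2*, Mcl1Δhep replicate 3 (18.8 and 18.0 CPM) lay below Mcl1Δhep Sting1-/- replicates 1 and 3. *Fn1* (0.62 ± 0.29, adjusted p = 0.247) and *Col18a1* (0.58 ± 0.24, adjusted p = 0.211) were the members with the largest positive values. Without Mcl1Δhep replicate 1, 6 members passed, *Lum*, *Sparc*, *Thbs1*, and *Mgp* below 0 and *Fn1* and *Col18a1* above, where 20.2% of all genes passed.

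In the test of the interaction, which asks whether the effect of *Mcl1* deletion differed between the *Sting1* backgrounds, no member passed in edgeR or DESeq2 (0.0% of tested genes in edgeR), and 1 member was above 0 and 2 were below 0 at an unadjusted p under 0.05, a limit that 14.4% of tested genes met. The members below 0 were *Sparc* (-0.92 ± 0.26, adjusted p = 0.255) and *Mgp* (-1.4 ± 0.51, adjusted p = 0.297). The median was -0.26, with 30 of 35 members below 0. It ranged from -0.65 without WT replicate 1 to -0.06 without WT replicate 3, with 23 to 31 members below 0 when 1 library was left out. It was also -0.53 without Mcl1Δhep Sting1-/- replicate 1, -0.40 without Sting1-/- replicate 3, -0.12 without Mcl1Δhep Sting1-/- replicate 3, and between -0.16 and -0.15 without WT replicate 2, Mcl1Δhep Sting1-/- replicate 2, or Sting1-/- replicate 1, and it was 0.02 in the 9 libraries without Y-linked expression. Without Mcl1Δhep replicate 1, 3 members passed, *Sparc* and *Mgp* below 0 and *Col18a1* above, where 10.2% of all genes passed.

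Sting1-/- livers were compared with WT livers as the background for *Sting1* loss without *Mcl1* deletion. No member passed in edgeR or DESeq2 (0.0% of tested genes in edgeR), and at an unadjusted p under 0.05 *Postn* was higher and *Efemp1* lower (-0.40 ± 0.17, adjusted p = 0.895), 2 of 35 members where 5.45% of tested genes met that limit. The median was -0.20, with 26 of 35 members below 0. It was 0.15 without WT replicate 1, -0.30 without WT replicate 3, and -0.22 with Y-linked expression as a covariate. In the 9 libraries without Y-linked expression, where WT is 1 liver, it was -0.46. Y-linked genes were expressed in WT replicates 2 and 3 and in no Sting1-/- liver, and the part of this in the shift was not tested.

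Genes that make, modify, or sense matrix were examined in 5 lists of 142 genes. Of all tested genes, 10.8% rose and 9.43% fell against WT, and 9.9% rose and 6.83% fell in the mean over backgrounds. Of 24 tested genes of collagen synthesis and processing, 8 rose and 2 fell against WT and 8 rose and 1 fell in the mean over backgrounds, with medians of 0.54 and 0.28. *Serpinh1*, the collagen chaperone HSP47, averaged 22.4 ± 10.3 CPM in WT, 66.4 ± 30.3 CPM in Mcl1Δhep, 19.6 ± 2.03 CPM in Sting1-/- and 31.0 ± 3.98 CPM in Mcl1Δhep Sting1-/- livers (mean effect 1.11 ± 0.23, adjusted p = 0.00856). *Plod2*, a lysyl hydroxylase that sets the type of crosslink, had a mean effect of 1.19 (adjusted p = 0.0147), *Creb3l1*, a transcription factor for collagen I, 0.99 (adjusted p = 0.0429), and *Fkbp10*, a collagen prolyl isomerase, 0.94 (adjusted p = 0.00217).

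Among 17 tested genes of other collagens, 1 rose and 1 fell against WT, and 3 rose and 1 fell in the mean, with medians of 0.14 and 0.13. The counts against WT were no higher than the shares over all tested genes (10.8% rose and 9.43% fell). The risers in the mean were *Col28a1* (1.78), *Col6a5* (1.26), and *Col6a6* (0.78), all under 3 CPM on average in each genotype. *Col27a1*, a fibrillar collagen of cartilage, fell in the mean, averaging 5.56 ± 2.17 CPM in WT, 1.23 ± 0.223 CPM in Mcl1Δhep, 2.08 ± 0.896 CPM in Sting1-/- and 1.65 ± 0.468 CPM in Mcl1Δhep Sting1-/- livers (mean effect -1.23, adjusted p = 0.00972). The change (edgeR) was -2.12, adjusted p = 0.00477, against WT and -0.33, adjusted p = 0.829, on the Sting1-/- background. Of 39 other matrix proteins, 9 rose and 2 fell against WT and 11 rose and 2 fell in the mean (medians 0.53 and 0.46). *Vcan*, the large proteoglycan versican, averaged 0.369 ± 0.178 CPM in WT, 3.03 ± 2.16 CPM in Mcl1Δhep, 0.225 ± 0.164 CPM in Sting1-/- and 1.05 ± 0.48 CPM in Mcl1Δhep Sting1-/- livers (mean effect 2.41, adjusted p = 0.00346). Also higher were *Spon2* (1.77, adjusted p = 0.00267), *Fbn2* (1.37, adjusted p = 0.025), and *Loxl4* (1.28, adjusted p = 0.0394).

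Of 24 matrix receptors, 5 rose and none fell both against WT and in the mean (medians 0.27 and 0.30). *Ddr1*, a collagen-binding tyrosine kinase, averaged 2.55 ± 0.858 CPM in WT, 8.33 ± 1.25 CPM in Mcl1Δhep, 2.02 ± 0.331 CPM in Sting1-/- and 3.31 ± 0.444 CPM in Mcl1Δhep Sting1-/- livers (mean effect 1.19, adjusted p = 0.00124). The collagen endocytosis receptor *Mrc2* (1.42), the hyaluronan receptor *Cd44* (0.71), and *Sdc1* (0.55) passed too. Of 22 genes of TGF-β signaling and its targets, 2 rose against WT, a share no higher than the 10.8% of all tested genes. In the mean 4 rose and 1 fell, where 9.9% and 6.83% of all tested genes did. The medians were 0.37 against WT and 0.33 in the mean. *Skil* (0.55) and *Tgfbi* (0.50) rose, and *Tgfbr3*, the coreceptor betaglycan, fell (-0.53). On the Sting1-/- background alone no gene of the 5 lists passed, where 0.803% of all tested genes did. So few passed there that this does not show an absence of change.

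Markers of cell types that could supply these transcripts moved with the result in part. Against WT, 10.8% of all tested genes rose. Of 6 myofibroblast and smooth muscle markers, all 6 rose against WT (median 2.72), and they summed to 12.3 to 24.6 CPM in WT, 52.3 to 112 CPM in Mcl1Δhep, 14.0 to 22.4 CPM in Sting1-/-, and 18.3 to 44.2 CPM in Mcl1Δhep Sting1-/- livers. In all 6, every Mcl1Δhep liver lay above every WT liver. Mcl1Δhep replicate 3, which held muscle transcripts, was the highest liver for *Acta2* (26.5 CPM, against 10.6 and 16.9), *Myl9*, *Cnn1*, *Actg2*, and *Myh11*. *Tagln* was highest in replicate 2 (78.5 CPM). The part of muscle in the size of this rise was not tested. Of 10 stellate cell markers, 3 rose (sums of 274 to 411 CPM in WT and 439.8 to 499 CPM in Mcl1Δhep livers), of 5 tested portal fibroblast markers 3 rose (9.87 to 22.8 and 26.4 to 57.2 CPM), and of 6 macrophage markers 2 rose (272 to 415 and 393 to 464 CPM). On the Sting1-/- background no marker of any list passed, where 0.803% of all tested genes did. Sums in Sting1-/- and Mcl1Δhep Sting1-/- livers overlapped for portal fibroblasts (10.6 to 15.7 and 12.3 to 24.9 CPM) and macrophages (351 to 454 and 417 to 504 CPM). Those of stellate cells did not overlap there (359.8 to 401 and 437 to 494 CPM). The stellate marker *Des*, which skeletal muscle also expresses, was at 69.9 CPM in Mcl1Δhep replicate 3, the library with muscle transcripts, and at 7.61 and 9.45 CPM in the other Mcl1Δhep livers. Without *Des*, a sum formed after its values were seen, the stellate markers came to 405, 270.0 and 311 CPM in WT and 491, 430.4 and 398 CPM in Mcl1Δhep livers, so that the groups overlapped. None of the 5 hepatocyte, 6 mesothelial, 6 sinusoidal endothelial, 6 other endothelial, and 6 cholangiocyte markers passed. Of the skeletal muscle and adipocyte markers, 2 of 2 and 1 of 3 tested rose. *Gli1* and *Clec3b*, listed for portal fibroblasts, were too low to test. The part of these cells in the change of the matrix genes was not tested. Without the Mcl1Δhep liver that held muscle transcripts, 19 of the 35 members passed against WT, and 16 of the 20 calls made with all livers were kept. The member median was then 1.08, against 0.96 with all livers. The share over all genes is not set beside this count.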

How the data were processed

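Total RNA of 12 mouse livers, 3 per genotype, was sequenced. The authors deposited raw read counts per Ensembl gene, 1 library per file, and their processing notes list STAR, featureCounts, and GRCm39 (versions, annotation release, and strand setting are not given in the sources used here). The 35 members and all gene lists were chosen with earlier results of these data known. Symbols and exon lengths came from GENCODE vM39, and 39533 of 40551 identifiers matched. The other 1018 carried at most 0.101% of a library and have no TPM. In R 4.3.3, edgeR 4.0.16 (TMM factors, filterByExpr, quasi-likelihood F test, Benjamini-Hochberg over 15070 genes, threshold 0.05, prior count 2 for fold changes) was fitted to all 4 genotypes at once, and fold changes are given ± SE. Replicates are separate libraries, and p-values measure the spread between them. On simulated counts with a log2 change of 2 in 198 of 14771 genes, edgeR recovered 171 in Mcl1Δhep against WT, with 9 false calls. That change is larger than the member medians of 0.96 and 0.66, so the recovery does not describe changes of their size. DESeq2 1.42.0 and other settings were alternatives. Statistics are listed in full for members called against WT or in the mean, and for the most abundant of each role, and others by range. Of the pathway lists, up to 4 passing genes are named. 1 passing gene is not reported here. Same-numbered replicates of different genotypes correlated at -0.541 to 0.251, and differently numbered ones at up to 0.441. These values do not settle whether the numbers pair livers, and livers were treated as unpaired.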

Additional observations from a re-analysis of the deposited data

How the results depend on the processing

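Of the fold changes of single members, 2742 kept their side of the threshold over the alternatives, 246 lost the call, and 53 gained it. No called fold change turned sign, and 50 uncalled ones did. Against WT, 20 members were called. The count was 8 with Y-linked expression as a covariate, 4 with small structured RNA as a covariate, 10 with only the groups compared, and 7 to 23 with 1 library left out. Settings chosen after seeing the data kept only the libraries without Y-linked expression (0 members), and left out Mcl1Δhep replicate 3 as well (1 member, *Thbs1*). On the Sting1-/- background, where 0 were called, DESeq2 called 8 and the replicate block called 2. Between Mcl1Δhep Sting1-/- and Mcl1Δhep livers 0 became 4 with DESeq2, 1 in the smaller of the added settings, and 0 to 6 with 1 library left out. The interaction gave 0 to 3 with 1 library left out. The mean effect, 25 members, gave 1 and 9 in the added settings. Over all genes, the calls against WT went from 3050 to 1531, 407, and 1178 with the Y-linked covariate, the small RNA covariate, and only the groups compared, and those on the Sting1-/- background from 121 to 474 with DESeq2. The replicate block called 25 members against WT, where 2591 of all genes were called. It kept all 20 calls against WT and 24 of 25 in the mean. Whether the replicate numbers pair livers was not settled.

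Without the libraries with Y-linked expression, the log2 differences of ratios were 0.49 (*Col1a1*/*Col1a2*), -0.3 (*Col3a1*/*Col1a1*), -0.91 (*Col5a1*/*Col1a1*), -0.1 (*Col6a1*/*Col6a2*), 0.48 (*Col6a3*/*Col6a1*), and 0.31 (*Lum*/*Dcn*). Also without Mcl1Δhep replicate 3 they were 0.56, -0.36, -0.89, -0.06, 0.62, and 0.29 in the same order. WT is 1 liver in both settings, which leave 40 and 30 arrangements. After adjustment over the 8 ratios no ratio could pass by itself, so the permutation test cannot decide there. With 1 library left out, *Col4a1*/*Col4a2* ranged from 0.12 to 0.24, *Col6a1*/*Col6a2* from -0.22 to -0.14, *Col6a3*/*Col6a1* from 0.4 to 0.66, *Lamb1*/*Lamc1* from 0.09 to 0.16, and *Lum*/*Dcn* from 0.55 to 0.81. All 8 ratios passed without WT replicate 1. The added settings have fewer livers. The causes of the other changes were not tested. Low counts limit *Lox*, with 5 to 87 counts per library.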
